A study of Mus musculus with 21 samples.

Results

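The genes described here are 9 genes of cytotoxic and other lymphocytes, measured in mouse liver after a dose of SPC3372, an antisense oligonucleotide made with locked nucleic acid that blocks microRNA-122. They were chosen by name, as probe sets whose only gene symbol on the array was Gzma, Gzmb, Prf1, Nkg7, Ncr1, Cd3d, Cd3e, Cd8a or Cd4. These 9 genes of 18193 were read by 15 of the 45101 probe sets, with 5 for Cd8a, 2 each for Prf1 and Cd4 and 1 for each of the others. The first 4 encode proteins of cytotoxic granules and are called granule genes below, and the other 5 encode receptors that mark lymphocyte lineages and are called receptor genes. Female NMRI mice, an outbred stock, were given 25 mg per kg of SPC3372, or saline alone, on day 2, and liver RNA was taken on day 3, 9 or 23. Each of the 6 groups held 3 mice: SPC3372 at days 3, 9 and 23, and saline at days 3, 9 and 23. No group received another oligonucleotide, so a response to SPC3372 through microRNA-122 and a response to an oligonucleotide of any sequence cannot be told apart.

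Cytotoxic lymphocytes, that is natural killer (NK) cells and CD8 T cells, kill a target cell by emptying granules onto it. Perforin opens the way for granzymes, serine proteases that cleave proteins inside the target, and the liver normally holds many NK cells and T cells in its sinusoids next to Kupffer cells, its resident macrophages. Lineage receptors tell the cells apart: NKp46, encoded by Ncr1, marks NK cells and related innate lymphoid cells, the CD3 chains mark T cells, CD8 marks cytotoxic T cells and CD4 marks helper T cells. MicroRNA-122 itself is made mainly by hepatocytes.

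All values are log2 expression values from Affymetrix arrays hybridised with RNA of whole liver, so more cells of a type and more RNA per cell cannot be told apart. The 21 arrays came from 18 mice, because RNA of the 3 SPC3372 mice of day 23 was run on arrays of both sets named in the labels, p0617 and p0621. Day 23 is given from p0621, which held both groups of that day, and days 3 and 9 lay in p0617. Array medians ran from 4.75 to 4.82. The 6 measured hepatocyte markers were led by Alb and Apoa1, at 14.86 ± 0.01 and 14.56 ± 0.02 in the SPC3372 mice of day 3 and 14.82 ± 0.01 and 14.63 ± 0.04 in the saline mice (SD, n = 3 each), as fits liver. Of the 9 lymphocyte genes, only Gzma, Cd3e and Cd4 had a mean over the 18 mice above 5.88, the median of all genes. Precision is limited by having 3 arrays per group, and each test is limma's, two-sided, adjusted over the 18193 genes.

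Promoter windows of 4 of the genes are shown here because the genes differed at day 3 in whether they passed the test of SPC3372 against saline. Gzma and Gzmb passed, while Prf1, a granule partner, and Cd3e, a T cell gene, did not. Nkg7, Cd3d, Cd8a and Cd4 did not pass either, and Ncr1 did. Their windows are not shown. Each window runs from 250 bases before to 50 bases after the transcript start (RefSeq, build GRCm38.p6), at chr13:113100932-113101231 on the minus strand for Gzma, chr14:56262285-56262584 on the minus strand for Gzmb, chr10:61297586-61297885 on the plus strand for Prf1 and chr9:45009562-45009861 on the minus strand for Cd3e. Sequences read 5′ to 3′ along the gene's own strand, and capitals mark matches, on either strand, to 6 motifs.
Gzma: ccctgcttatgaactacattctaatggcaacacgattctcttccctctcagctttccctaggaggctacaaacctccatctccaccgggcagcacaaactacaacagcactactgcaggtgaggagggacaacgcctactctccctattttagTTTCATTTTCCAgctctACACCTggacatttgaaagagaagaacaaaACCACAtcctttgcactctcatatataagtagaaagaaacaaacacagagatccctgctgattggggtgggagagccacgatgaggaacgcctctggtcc
Gzmb: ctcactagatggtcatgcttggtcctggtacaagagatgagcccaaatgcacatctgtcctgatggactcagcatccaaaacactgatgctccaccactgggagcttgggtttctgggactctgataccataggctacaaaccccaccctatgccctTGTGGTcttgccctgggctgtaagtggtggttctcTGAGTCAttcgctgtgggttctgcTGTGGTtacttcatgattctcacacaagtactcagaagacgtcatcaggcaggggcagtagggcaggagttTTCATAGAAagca
Prf1: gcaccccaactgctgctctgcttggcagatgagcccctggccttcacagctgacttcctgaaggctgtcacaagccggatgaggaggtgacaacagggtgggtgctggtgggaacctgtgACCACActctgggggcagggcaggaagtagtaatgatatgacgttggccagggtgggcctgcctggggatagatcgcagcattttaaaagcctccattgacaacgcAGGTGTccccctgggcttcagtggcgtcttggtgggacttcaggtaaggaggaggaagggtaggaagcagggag
Cd3e: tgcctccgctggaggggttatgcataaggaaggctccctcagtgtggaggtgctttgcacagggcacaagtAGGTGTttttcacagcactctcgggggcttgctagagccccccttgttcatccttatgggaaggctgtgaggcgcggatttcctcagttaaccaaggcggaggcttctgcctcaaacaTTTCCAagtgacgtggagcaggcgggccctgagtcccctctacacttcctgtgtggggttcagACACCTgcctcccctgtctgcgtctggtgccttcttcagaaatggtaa

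The motifs searched were T-box AGGTGT, RUNX TGTGGT, NFAT TGGAAA, AP-1 TGANTCA, a gamma activated sequence TTCNNNGAA, where N is any base, and an interferon response sequence, GAAA repeated after any 2 bases. Of the 9 genes, 8 had a window in the RefSeq table. The RUNX letters were in 5 of the 8 windows (Gzma, Gzmb, Prf1, Nkg7 and Ncr1), against 16.8% of 32851 promoters, and in none of the 3 CD3 and CD8 windows. The T-box letters were in Gzma, Prf1, Nkg7, Cd3d and Cd3e, against 13.7% of promoters. Gzma alone of the 8 held the interferon response letters (3.44% of promoters), which overlap its NFAT match on the minus strand, at positions -97 and -91 from the start. The NFAT letters were also in Cd3e (21.4% of promoters). Gzmb alone held the AP-1 letters (7.81%), at position -58, and Gzmb, Nkg7 and Cd3d held the gamma activated letters (8.3%). The Cd8a window held none of the 6. Both granzymes thus share only the RUNX letters, which Prf1 holds too. A match describes letters and not a bound site.

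At day 3, a day after dosing, the granzymes A and B were higher in the livers of SPC3372 mice, and Ncr1 was higher by a smaller amount. The other 6 genes did not pass the test. Of the 9 genes, 3 passed in the upward direction and 0 in the downward direction, where 2.63% of all genes passed upward, 1.88% downward and 4.51% either way. By role, 2 of the 4 granule genes and 1 of the 5 receptor genes rose. In 6 of the 9 genes every SPC3372 mouse lay above every saline mouse, against 11.1% of all genes. They were Gzma, Gzmb and Nkg7 among the granule genes and Ncr1, Cd3e and Cd4 among the receptor genes.

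**Figure D1:**
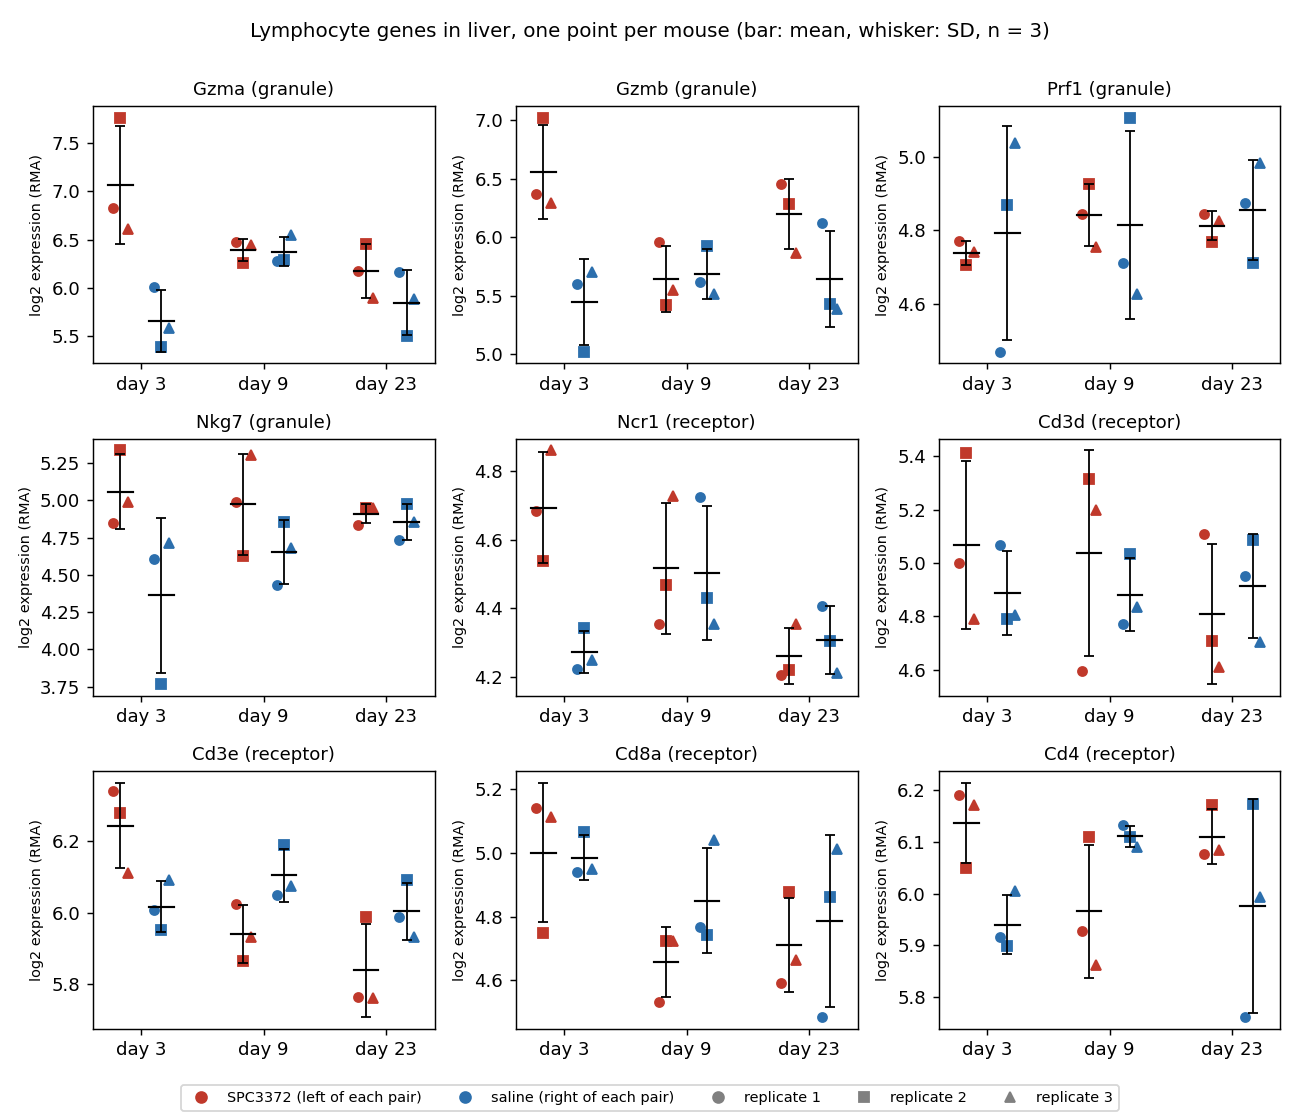
Log2 expression of the 9 genes in each of 18 mice, with the mean and SD of 3 mice per group, SPC3372 left of saline at each day (each panel has its own vertical scale). The day 3 groups are apart for Gzma, Gzmb, Nkg7, Ncr1, Cd3e and Cd4, and overlap for Prf1, Cd3d and Cd8a.

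Gzma encodes granzyme A, a protease that cleaves after basic residues. It had 6.83, 7.76 and 6.61 in the SPC3372 mice of day 3, against 6.01, 5.39 and 5.59 in the saline mice. The lowest SPC3372 mouse lay above the highest saline mouse, and the spread was widest among the SPC3372 mice with replicate 2 the highest. The means were 7.07 ± 0.61 and 5.66 ± 0.32 (SD, n = 3 each), a difference of 1.40 (SE 0.24, 95% interval 0.89 to 1.92, adjusted p = 0.00252) or 2.65-fold. The lowest of these SPC3372 mice also lay above the highest mouse of each other group where day 23 is read from p0621. On p0617 the highest SPC3372 mouse of day 23 was at 6.611, above that lowest mouse at 6.607.

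Gzmb encodes granzyme B, which cleaves after aspartate and starts caspase-driven death. It had 6.37, 7.02 and 6.29 in the SPC3372 mice of day 3, against 5.60, 5.02 and 5.70 in the saline mice. As for Gzma, replicate 2 was the highest SPC3372 mouse and replicate 2 the lowest saline mouse. The means were 6.56 ± 0.40 and 5.44 ± 0.37 (SD, n = 3 each), a difference of 1.12 (SE 0.24, 95% interval 0.61 to 1.62, adjusted p = 0.0114) or 2.17-fold. Without SPC3372 replicate 2 the adjusted p was 0.0581, and without saline replicate 2 it was 0.0666. A fit on the 6 arrays of day 3 alone gave adjusted p of 0.0557 for Gzma and 0.0587 for Gzmb.

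Prf1 encodes perforin, the pore-forming protein of the same granules. Its brighter probe set had 4.77, 4.70 and 4.74 in the SPC3372 mice of day 3 and 4.47, 4.87 and 5.04 in the saline mice. All 3 SPC3372 values fell inside the saline range, and the difference was -0.05 (SE 0.13, 95% interval -0.33 to 0.23, adjusted p = 0.886). A second, dimmer probe set had 4.80, 4.35 and 4.55 in the SPC3372 mice, against 4.33, 4.03 and 4.43 in the saline mice, a difference of 0.30 (SE 0.15, adjusted p = 0.367 over all probe sets). Over the 18 mice the probe sets of Prf1 correlated at -0.17 with each other, and with Gzma at -0.28 for the brighter and 0.40 for the dimmer. They disagree, so these arrays give no single perforin level.

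Nkg7 encodes a small membrane protein of the granules that is needed for their release. It had 4.85, 5.34 and 4.99 in the SPC3372 mice of day 3, against 4.61, 3.77 and 4.72 in the saline mice. The groups did not overlap, and saline replicate 2 lay furthest down. The difference was 0.69 (SE 0.21, 95% interval 0.25 to 1.14) with an adjusted p of 0.0723, which misses the threshold of 0.05. Without saline replicate 2 it was 0.40 with an adjusted p of 0.295, and without saline replicate 3 it was 0.87 with an adjusted p of 0.0395.

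Among the receptor genes, Ncr1 had 4.68, 4.54 and 4.86 in the SPC3372 mice of day 3, against 4.22, 4.34 and 4.25 in the saline mice. The groups did not overlap, and their means were 4.69 ± 0.16 and 4.27 ± 0.06 (SD, n = 3 each). The difference was 0.42 (SE 0.11, 95% interval 0.18 to 0.66, adjusted p = 0.0437). That call was close to the threshold and ended under 10 of the 14 other settings that could test the gene.

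Cd3e and Cd3d encode the epsilon and delta chains of the CD3 complex, which signals for the T cell receptor. Cd3e had 6.34, 6.28 and 6.11 in the SPC3372 mice of day 3, against 6.01, 5.95 and 6.09 in the saline mice. Its groups were apart by a small step, and the difference of 0.23 (SE 0.09, 95% interval 0.04 to 0.41) did not pass (adjusted p = 0.171). Cd3d had 5.0, 5.41 and 4.79 in the SPC3372 mice and 5.07, 4.79 and 4.80 in the saline mice. These overlapped, with a difference of 0.18 (SE 0.19, 95% interval -0.21 to 0.58, adjusted p = 0.681).

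Cd8a encodes the CD8 alpha chain. Its brightest probe set had 5.14, 4.75 and 5.11 in the SPC3372 mice of day 3, against 4.94, 5.07 and 4.95 in the saline mice, and the difference was 0.02 (SE 0.14, 95% interval -0.27 to 0.30, adjusted p = 0.969). Affymetrix gives that probe set a suffix for probes that may also bind other transcripts. The other 4 probe sets of Cd8a differed by -0.04 to 0.23, and none passed. Only one of these 4 had all SPC3372 mice above all saline mice, at 3.61, 3.52 and 3.33 against 3.20, 3.32 and 3.26 (difference 0.23, adjusted p = 0.362 over all probe sets).

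Cd4 encodes the receptor of helper T cells, which some mouse dendritic cells also carry. Its brighter probe set had 6.19, 6.05 and 6.17 in the SPC3372 mice of day 3, against 5.92, 5.90 and 6.01 in the saline mice. The groups were apart, but the difference of 0.20 (SE 0.10, 95% interval -0.0046 to 0.40, adjusted p = 0.287) did not pass. The dimmer probe set had 4.30, 4.29 and 4.46 in the SPC3372 mice and 4.32, 4.10 and 4.26 in the saline mice, which overlapped.

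**Figure D2:**
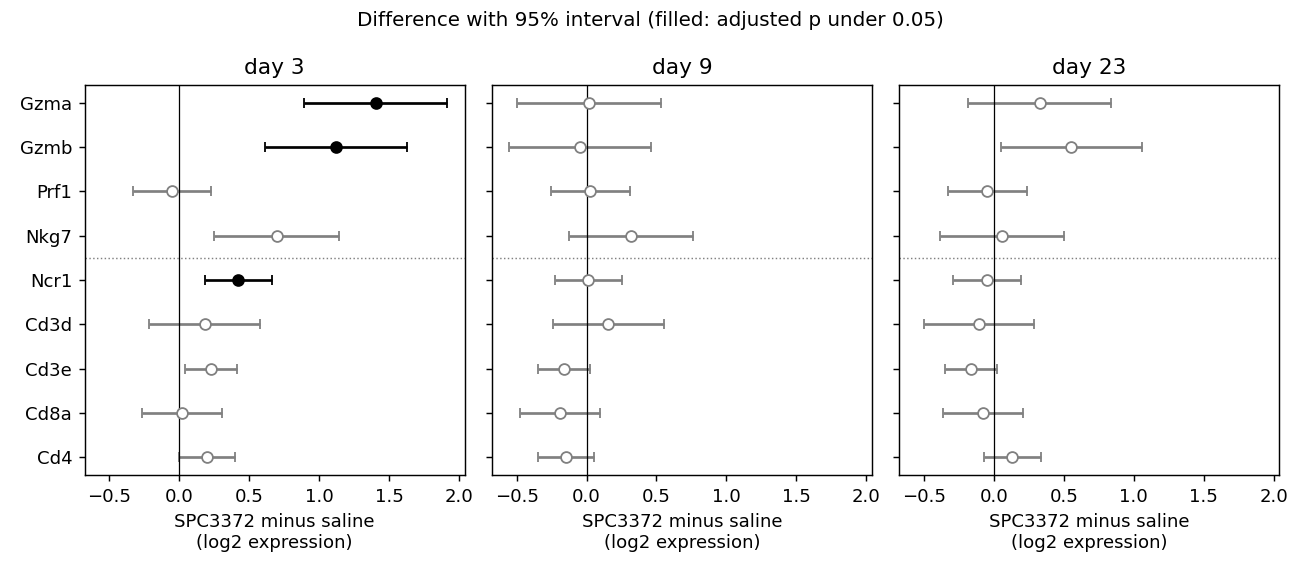
SPC3372 minus saline on the log2 scale with its 95% interval for the 9 genes at days 3, 9 and 23, granule genes above the dotted line and receptor genes below it. Filled points (Gzma, Gzmb and Ncr1 at day 3) passed an adjusted p of 0.05, and open points did not.

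Granule and receptor genes were set side by side as means over the genes of each group, relative to the saline mean of the day. This is a description with no test, because the genes were chosen with earlier results known. At day 3 the granule genes of the 3 SPC3372 mice lay 0.64, 1.14 and 0.59 above the saline mean, and the receptor genes of the same mice 0.25, 0.19 and 0.19. The granule means thus varied more between mice than the receptor means did. The same held in saline mice, at 0.11, -0.30 and 0.20 for granule genes and -0.01 to 0.01 for receptor genes. This describes the means and not each gene, since the SD in SPC3372 mice of day 3 was 0.03 for Prf1 and 0.32 for Cd3d. The median difference was 0.91 over the granule genes and 0.20 over the receptor genes, beside 0.01 over all genes. The difference of the group means, granule minus receptor, was 0.58, and by mouse it was 0.39, 0.96 and 0.40 in SPC3372 mice and 0.10, -0.29 and 0.20 in saline mice. All 5 receptor genes had a difference above 0, as did 3 of the 4 granule genes, where 52.8% of all genes did.

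**Figure D3:**
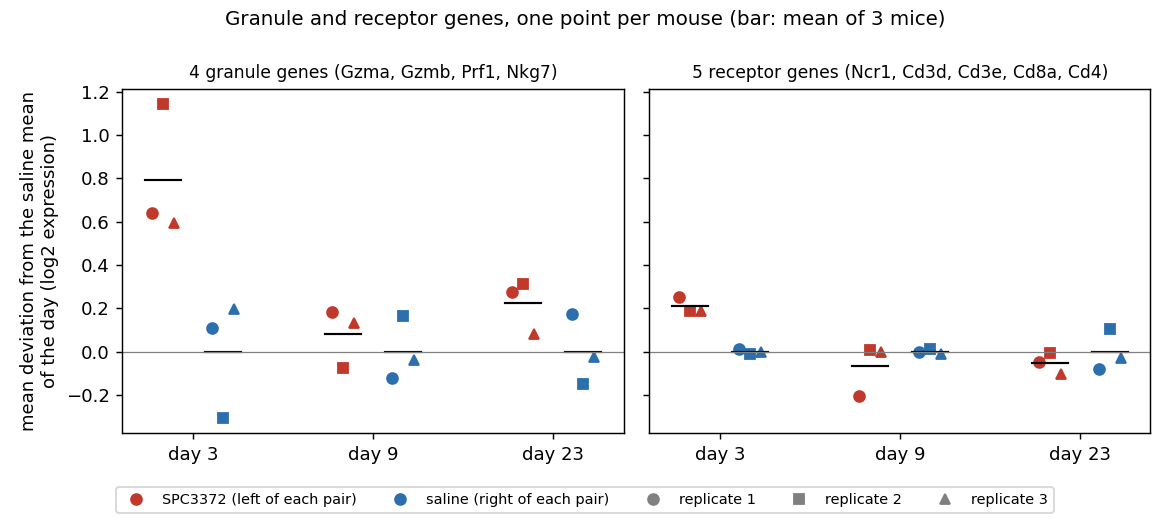
Mean deviation of the 4 granule genes (left) and the 5 receptor genes (right) from the saline mean of the same day, 1 point per mouse, SPC3372 left of saline, with a bar at the mean of 3 mice. The SPC3372 mice of day 3 sit at 0.59 to 1.14 for granule genes and 0.19 to 0.25 for receptor genes.

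At day 9 none of the 9 genes passed the test in either direction, and none had an unadjusted p under 0.05 (2.81% and 16.8% of all genes did). Gzma had 6.48, 6.26 and 6.44 in SPC3372 mice, against 6.28, 6.29 and 6.55 in saline mice, a difference of 0.02 (SE 0.24, 95% interval -0.49 to 0.53, adjusted p = 0.98). Gzmb had 5.96, 5.42 and 5.55 in SPC3372 mice and 5.62, 5.93 and 5.52 in saline mice, a difference of -0.05 (95% interval -0.55 to 0.46, adjusted p = 0.951). Both granzymes overlapped between the groups.

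Nkg7, whose groups were apart at day 3, had 4.99, 4.62 and 5.31 in SPC3372 mice of day 9, against 4.43, 4.85 and 4.68 in saline mice, a difference of 0.32 (adjusted p = 0.48). Prf1 had 4.85, 4.93 and 4.76 in SPC3372 mice and 4.71, 5.11 and 4.63 in saline mice, and its probe sets again differed in sign, at 0.03 and -0.20. For Cd3e and Cd8a every SPC3372 mouse lay below every saline mouse, against 11.2% of all genes, yet neither passed. Cd3e had 6.02, 5.87 and 5.93 in SPC3372 mice and 6.05, 6.19 and 6.07 in saline mice (difference -0.16, adjusted p = 0.365). Cd8a had 4.53, 4.72 and 4.72 in SPC3372 mice and 4.77, 4.74 and 5.04 in saline mice (difference -0.19, adjusted p = 0.517). Ncr1, at 4.35, 4.47 and 4.73 in SPC3372 mice and 4.72, 4.43 and 4.35 in saline mice, differed by 0.01. Cd3d and the brighter Cd4 probe set differed by 0.16 and -0.15, and both overlapped between the groups. The dimmer Cd4 probe set differed by -0.24 with every SPC3372 mouse below every saline mouse (adjusted p = 0.322 over all probe sets).

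At day 23 none of the 9 passed either, where 0.385% of all genes did. Gzmb alone had an unadjusted p under 0.05, as did 13.9% of all genes. It had 6.45, 6.28 and 5.86 in SPC3372 mice, against 6.12, 5.43 and 5.38 in saline mice, and saline replicate 1 overlapped the SPC3372 mice. The difference was 0.55 (SE 0.24, 95% interval 0.05 to 1.06, adjusted p = 0.313). Gzma had 6.18, 6.45 and 5.90 in SPC3372 mice and 6.16, 5.50 and 5.89 in saline mice, a difference of 0.33 (95% interval -0.18 to 0.84, adjusted p = 0.605). Nkg7 and Prf1 differed by 0.06 and -0.04. The receptor genes differed by -0.17 (Cd3e) to 0.13 (Cd4). The Cd4 value is from the brighter probe set, and the dimmer one was of opposite sign, at -0.30 (adjusted p = 0.271 over all probe sets). The 95% intervals of Cd3d, Cd3e and Cd8a reached down to -0.50, -0.35 and -0.36.

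The same 3 SPC3372 mice of day 23, numbered 36, 37 and 38, show how far the values of a mouse differed between the array sets. The p0621 array minus the p0617 array of the mouse was -0.43, -0.0012 and -0.17 for Gzma and 0.19, 0.04 and -0.28 for Gzmb. These shifts are as large as much of the day 23 difference for Gzma. Cd4 shifted the same way in every mouse, by 0.28, 0.37 and 0.38, which is more than its day 23 difference between the groups. Levels of Cd4 at day 23 and at the earlier days are therefore not set against each other.

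Whether the response itself differed between days was tested as a change in the SPC3372 minus saline difference. These comparisons share the day 3 mice. From day 3 to day 9 none of the 9 genes passed (0.143% of all genes did), while 5 had an unadjusted p under 0.05 (11.6% of all genes did). Gzma changed by -1.38 (SE 0.34, 95% interval -2.11 to -0.66, adjusted p = 0.129) and Gzmb by -1.16 (SE 0.34, 95% interval -1.88 to -0.45, adjusted p = 0.186). The others were Cd3e at -0.39, Ncr1 at -0.41 and Cd4 at -0.34, with adjusted p from 0.229 to 0.328. From day 3 to day 23 none passed (0.302% of all genes did), and 4 had an unadjusted p under 0.05 (10.3%). They were Gzma at -1.08 (adjusted p = 0.256), Ncr1 at -0.47, Cd3e at -0.39 and Nkg7 at -0.64, while Gzmb was at -0.56 (adjusted p = 0.62). The tests thus do not establish that the granzyme response at day 3 differed from that at the later days.

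Saline mice also differed between days. Gzma averaged 6.37 ± 0.15 in saline mice of day 9 and 5.66 ± 0.32 in saline mice of day 3 (SD, n = 3 each), with every day 9 mouse above every day 3 mouse, a difference of 0.71 (SE 0.24) that did not pass (adjusted p = 0.106). The SPC3372 mice of day 3 and day 9 were a similar step apart in the opposite direction, at 7.07 and 6.39. Across all groups Gzma was highest in SPC3372 mice of day 3 (7.07), followed by SPC3372 at day 9 (6.39), saline at day 9 (6.37), SPC3372 at day 23 (6.18), saline at day 23 (5.85) and saline at day 3 (5.66). All neighbours after the first overlapped. Gzmb was highest in SPC3372 mice of day 3 (6.56) and of day 23 (6.20), and the other 4 groups ranged from 5.44 to 5.69. Each neighbour of that order overlapped with the next. Both orders set p0621 arrays of day 23 beside p0617 arrays of days 3 and 9, so they depend on the array set. On p0617 the SPC3372 mice of day 23 averaged 6.38 for Gzma, above saline at day 9. For Gzmb they averaged 6.21 on p0617, with the highest at 6.26, below the lowest SPC3372 mouse of day 3 at 6.29. None of the 9 genes passed between the saline groups of days 9 and 3, where 5.88% of all genes did, and 1 had an unadjusted p under 0.05 (18% of all genes did).

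Levels of the 9 genes across the 18 mice were correlated as a description, since mice of a group share a day and a treatment. Gzma and Gzmb correlated at 0.76, Gzma and Nkg7 at 0.57, and Gzma and the receptor genes Cd3e, Ncr1 and Cd8a at 0.51, 0.49 and -0.08. The probe sets of Cd8a differed in this, with 1 of the dimmer 4 at 0.51. The genes most like Gzma, among those above the median level, were Tmem86a (r = 0.88), Themis2 (0.83), Fyb (0.82), Dram2 (0.82) and Cyb561a3 (0.82). Within groups, after each group's mean was removed, these 5 fell to between 0.28 and 0.68. The genes most like Gzmb were Zc3hav1 (0.86), Cd5l (0.80), Clec4f (0.80), Ly86 (0.80) and Akr1c20 (0.80), at 0.46 to 0.73 within groups. Cd5l and Clec4f are Kupffer cell genes. For Cd3e they were Cd300c2 (0.82), Zfpm2 (0.82), Pilra (0.77), Cks2 (0.77) and Pla2g7 (0.74), at -0.13 to 0.63 within groups. Most T cell and NK cell genes of the lists used here lay below the median level and so were not compared.

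Other genes of the cytotoxic programme were read from lists chosen with earlier results of these data known. Of 8 other granzymes, 0 passed at day 3, with 1 at an unadjusted p under 0.05, as 18.3% of all genes had at that day, and a median difference of 0.05, and all 8 lay below the median level of all genes. Gzmm and Gzmk, the brightest, differed by -0.08 (5.62, 5.56 and 5.48 in SPC3372 mice, 5.67, 5.34 and 5.89 in saline mice) and by 0.06. Of 14 genes for granule packing, release and granzyme inhibition, 1 rose at day 3 (5 at an unadjusted p under 0.05, median 0.17). It was Srgn, which encodes serglycin, the proteoglycan that holds granzymes in granules and that other blood cells make too. Srgn had 9.51, 9.36 and 9.20 in SPC3372 mice, against 8.43, 8.74 and 9.10 in saline mice, a difference of 0.61 (SE 0.13, adjusted p = 0.0134). Its groups were apart by a narrow margin, set by saline replicate 3, and without SPC3372 replicate 1 or saline replicate 1 the adjusted p was 0.0775 or 0.066. Of 9 genes for death receptors and lymphocyte cytokines, 0 passed (2 at an unadjusted p under 0.05, median 0.07), and the brightest, Fas and Tnfsf10, which encodes TRAIL, differed by -0.10 and -0.22.

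NK cell genes beside Ncr1 were mixed. Of 21 measured NK cell receptors and regulators, 3 rose at day 3 and 0 fell, with a median difference of 0.16. An unadjusted p under 0.05 was found for 6 of the 21, beside 18.3% of all genes. Klrk1 encodes NKG2D, an activating receptor, and had 5.54, 6.46 and 4.83 in SPC3372 mice, against 4.61, 4.35 and 4.79 in saline mice. The groups were apart by little, and SPC3372 replicate 2 set much of the difference of 1.03 (SE 0.27, adjusted p = 0.0348). Without that mouse it was 0.60 with an adjusted p of 0.106. Klrd1 encodes CD94, the partner of NKG2 receptors, and differed by 0.47 (SE 0.12, adjusted p = 0.0381), with every SPC3372 mouse above every saline mouse. Tyrobp encodes DAP12, a signalling adaptor of NK cells that macrophages and Kupffer cells use as well. It had 8.92, 9.28 and 8.80 in SPC3372 mice, against 7.93, 7.75 and 8.70 in saline mice (difference 0.87, SE 0.19, adjusted p = 0.0132). The 3 calls were not stable: leaving out 1 mouse at a time left 0 to 3 of the 21 genes past the threshold, and 0 without SPC3372 replicate 2, without saline replicate 1 or without saline replicate 2.

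T cell genes beside the 4 receptors did not pass. Of 19 measured genes of the T cell receptor complex and its signalling, 0 passed at day 3 by limma, with a median difference of 0.08. An unadjusted p under 0.05 was found for 3 of the 19, beside 18.3% of all genes. Zap70 and Lat, a kinase and an adaptor of T cell receptor signalling and the brightest of the list, differed by 0.07 and 0.25 (adjusted p = 0.923 and 0.18). Icos, a costimulatory receptor named after its values were seen, differed by 0.54 (SE 0.17, adjusted p = 0.0783) and passed without SPC3372 replicate 1 (0.68, adjusted p = 0.0495). Of 12 B and plasma cell genes 1 rose, Cd22, a B cell lectin, at 5.89, 5.98 and 6.18 in SPC3372 mice and 5.43, 5.60 and 5.54 in saline mice (difference 0.49, SE 0.13, adjusted p = 0.0407), and the median was 0.13. The Cd22 call ended under 11 of 14 other settings, among them each one that left out a mouse. Of 13 cytokines and receptors that activate NK and T cells, 0 passed and 0 had an unadjusted p under 0.05, with a median of 0.09. Ifnar2, an interferon receptor chain, and Il18 differed by 0.12 and -0.15. At days 9 and 23 none of the genes of these 7 lists passed. In each list 0 to 4 had an unadjusted p under 0.05, beside 16.8% of all genes at day 9 and 13.9% at day 23. The 4 were in the list of 12 B and plasma cell genes at day 9, where the median difference was -0.17. Cd79b, a chain of the B cell receptor, passed downward at day 9 when the 6 arrays of that day were fitted alone (-0.52, adjusted p = 0.0487).

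**Figure D4:**
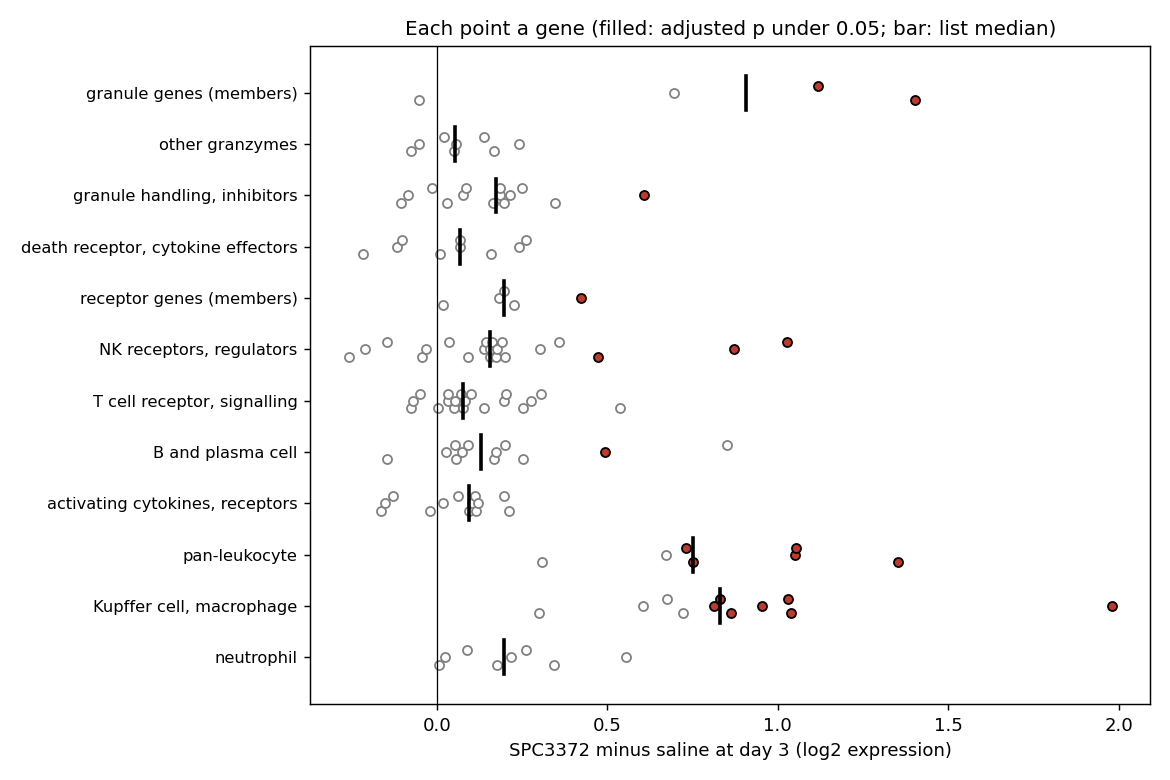
SPC3372 minus saline at day 3 on the log2 scale, 1 point per gene, for the 9 genes in their 2 groups and for 10 other lists, with a bar at each list's median. Filled points passed an adjusted p of 0.05, and they crowd in the pan-leukocyte and the Kupffer cell and macrophage lists (medians 0.75 and 0.83).

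Markers of other cells moved at day 3 together with the granzymes. Of 11 Kupffer cell and macrophage markers 7 rose and 0 fell, with a median difference of 0.83 and a summed linear level of 9699 to 15027 in SPC3372 mice and 5172 to 9897 in saline mice. Marco, a scavenger receptor, had 6.75, 7.72 and 7.15 in SPC3372 mice, against 5.31, 4.39 and 5.98 in saline mice (difference 1.98, adjusted p = 0.00306). Clec4f, a Kupffer cell lectin, differed by 1.04 and Cd68, a lysosomal protein of macrophages, by 1.03. Of 7 pan-leukocyte markers 5 rose, with a median of 0.75 and a summed level of 1429 to 2022 in SPC3372 mice and 785 to 1281 in saline mice. Among them Cd52 rose by 1.35, and Ptprc, which encodes CD45 and is carried by all leukocytes, had 8.99, 9.15 and 8.64 in SPC3372 mice and 7.75, 7.60 and 8.26 in saline mice (difference 1.05, adjusted p = 0.000727). Itgb2, an integrin chain of leukocytes, also rose by 1.05. Over all genes 2.63% passed upward at day 3, and 821 genes (4.51%) passed either way. Without saline replicate 2 the Kupffer cell count was 4 and the pan-leukocyte count 4, where 508 of all genes passed. On the 6 arrays of day 3 alone the counts were 1 (Marco) and 3, where 253 of all genes passed. With the beta-actin covariate described below they were 1 (Marco) and 1 (Cd52), where 98 of all genes passed. SPC3372 replicate 2 was the highest and saline replicate 2 the lowest of the 6 mice in Gzma and Gzmb, as given above. Nkg7 and Cd3d showed this too. The same held for 10 of the 11 Kupffer cell markers, 3 of the 7 pan-leukocyte markers and 9 of the 21 NK cell genes, beside 4.19% of all genes. Only this pair of mice, the one seen in Gzma and Gzmb, was counted, so the counts are a description and no test. At day 9 none of either marker list passed, and their medians were 0.16 and 0.20. An unadjusted p under 0.05 was found for 4 Kupffer cell markers and 0 pan-leukocyte markers, beside 16.8% of all genes. The part of these cells in the granzyme result was not tested.

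Further marker lists moved less at day 3. Of 8 neutrophil markers 0 passed (1 at an unadjusted p under 0.05, median 0.20, summed level 254 to 368 in SPC3372 mice and 231 to 288 in saline mice), with S100a9 at 0.56 and Elane at 0.02. S100a9 passed without SPC3372 replicate 3 (0.87, adjusted p = 0.0223), and without SPC3372 replicate 2 it was at 0.28 (adjusted p = 0.564). Of 7 mast cell and basophil markers 0 passed and 0 had an unadjusted p under 0.05 (median -0.0042, with Cma1 at 0.02 and Tpsb2 at 0.09). Mast cells are another source of granule proteases. Of 6 dendritic cell markers 0 passed and 0 had an unadjusted p under 0.05 (median 0.15, with Flt3 at 0.08 and Siglech at 0.15). The 6 hepatocyte markers (0 passed, 0 with an unadjusted p under 0.05) had a median of 0.03 and a summed level of 109367 to 109587 in SPC3372 mice and 106749 to 108625 in saline mice. Of 5 sinusoidal endothelial markers Clec4g rose at day 3 (0.60, adjusted p = 0.00622) and at day 9 (0.48, adjusted p = 0.0364). Of 5 stellate cell markers 0 passed at day 3 (1 at an unadjusted p under 0.05, median -0.14), and Reln and Dcn rose at day 9 (0.63 and 0.57). The day 9 calls were not stable, as those of Clec4g and Dcn each ended under 11 of 16 other settings and that of Reln under 9. Flt3 was at -0.30 at day 9 (adjusted p = 0.0557) and passed downward under 3 of 15 other settings. At day 23 none of the markers of any list passed, and 0 to 2 per list had an unadjusted p under 0.05 (13.9% of all genes did). Kdr, a sinusoidal endothelial marker, passed upward at day 23 when only genes above the median level were tested (0.34, adjusted p = 0.0397).

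One of 2 measures of RNA quality also differed between the groups of day 3. The log2 ratio of the 3′ to the 5′ probe set of the beta-actin control, which rises as RNA breaks, was 1.03 ± 0.02 in SPC3372 mice of day 3 and 0.80 ± 0.05 in saline mice (SD, n = 3 each), without overlap. It was 1.14 ± 0.02 and 0.93 ± 0.06 at day 9, again without overlap, where Gzma differed by 0.02 and Gzmb by -0.05. At day 23 it was 1.15 ± 0.16 and 1.16 ± 0.04. The same ratio of the GAPDH control overlapped at day 3, with means of 0.117 in SPC3372 mice and 0.069 in saline mice, and at day 9, with means of -0.064 and 0.151. With the ratio as a covariate the day 3 differences were 1.15 for Gzma (adjusted p = 0.171), 0.93 for Gzmb (adjusted p = 0.269) and 0.46 for Ncr1 (adjusted p = 0.258), so none of the 9 genes passed. In that fit 98 of all genes passed, against 821 without the covariate. Since the ratio separates SPC3372 from saline mice at days 3 and 9, ratio and treatment cannot be told apart by it.

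**Figure D5:**
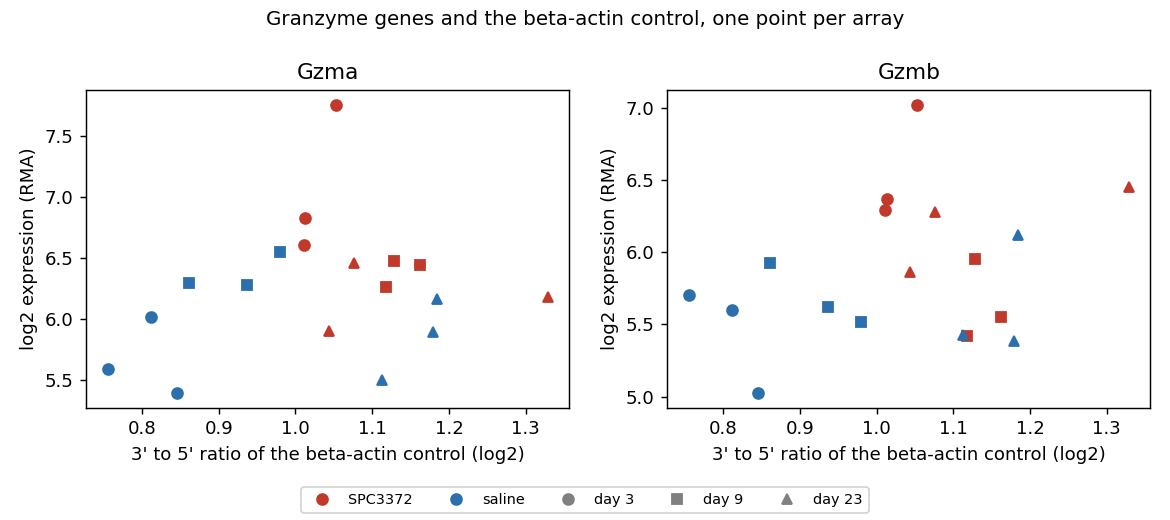
Log2 expression of Gzma (left) and Gzmb (right) against the log2 3′ to 5′ ratio of the beta-actin control, 1 point per array of 18 mice, coloured by treatment with marker shapes for days 3, 9 and 23. The SPC3372 mice of day 3 have ratios of 1.01 to 1.05 and the highest Gzma, while SPC3372 mice of day 9 have higher ratios and Gzma between 6.26 and 6.48.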

How the data were processed

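Liver RNA of 18 mice was measured on Affymetrix mouse arrays, 21 in all. Values were deposited as log2 expression for each probe set, which the authors obtained from RMA, a method that corrects background, equalises the arrays by quantiles and summarises probes, per the submitters' processing notes. Neither the version of RMA nor the arrays it was run on jointly is given in the sources used. Names came from the annotation of the array platform: of 45101 probe sets, 64 were controls, 34945 had 1 symbol, 932 several and 9160 none, and a RefSeq table (GRCm38.p6) updated 0 symbols. The brightest probe set on average over the 18 mice stood for its gene, which gave 18193 genes, 9010 of them read by several probe sets.

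Group means were fitted with limma (lmFit and eBayes, 12 residual and 4.85 prior degrees of freedom), with 1 array per mouse and p0621 for day 23. The fit pooled the spread of the 6 groups. Adjustment of p-values was by Benjamini-Hochberg over the 18193 genes at a threshold of 0.05. Contrasts were SPC3372 minus saline at each day, the change of that difference between days, and saline day 9 minus saline day 3. The labels call the mice of a group biological replicates. Mouse numbers recur between groups of different days, and those were taken as different animals.

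The members, the other gene lists, the marker lists and the settings were chosen with earlier results of these data known. All 9 members were named. Of each other list up to 4 genes past the threshold a day were named by size, and of each marker list up to 3, or the 2 brightest where none passed. The 5 genes with the highest Pearson correlation were named for Gzma, Gzmb and Cd3e. Listed genes without a value on a probe set of 1 symbol were not analysed here. Other settings were a fit on a day's own arrays, quantile normalization, median centring, an intensity trend with a robust prior, level filters at the median and the 75th percentile, averaging the probe sets of a gene, testing every probe set, a replicate block, the beta-actin 3′ to 5′ ratio as a covariate, the p0617 arrays of day 23 and each mouse left out in turn. The fit was tested on simulated data. Software was data.table (1.17.8) and limma 3.58.1 in R 4.3.3, and pandas 2.3.3 and matplotlib 3.10.9 in Python 3.11.15.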

Additional observations from a re-analysis of the deposited data

How the results depend on the processing

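The count of the 9 genes that passed at day 3 was 3, and a fit on that day's 6 arrays gave 0. It was 0 with the beta-actin ratio as a covariate, 1 among genes above the median level and 0 above the 75th percentile, where none of the 9 was left to test. The counts of all genes in the first and second of these settings were 253 and 98, against 821. Among genes above the median level 1077 passed, and 720 above the 75th percentile. On those 6 arrays, where the differences are the same by construction, Gzma, Gzmb and Ncr1 had adjusted p of 0.0557, 0.0587 and 0.102. Above the median level only Gzma of the 3 could be tested, and it passed. Leaving out 1 mouse at a time gave 1 to 3 genes, with 1 without saline replicate 2. The counts of all genes in these fits were 435 to 876, and 508 without saline replicate 2. At day 3 only Gzma, Gzmb and Ncr1 had a call to lose. Gzma lost it under 2 of 15 other settings, Gzmb under 4 of 14 and Ncr1 under 10 of 14. Nkg7 gained a call under 1 of 14. The count was 0 at days 9 and 23, for both changes between days and between the saline groups, under every setting run. The granule minus receptor difference at day 23 was 0.276, and 0.395 with the p0617 arrays of the SPC3372 mice. Leaving out 1 mouse gave 0.149 to 0.401 at day 23, 0.395 to 0.680 at day 3 (0.582 with all mice) and 0.0254 to 0.260 at day 9 (0.146 with all mice). No result changed sign while past the threshold.

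Replicate numbers recur in all groups, but same-numbered mice did not deviate together: the correlations of their deviations from the group means were -0.137 to 0.057 at day 3, 0.011 to 0.076 at day 9 and 0.019 to 0.043 at day 23. With the replicate number as a block the day 3 count was 2, as Ncr1 did not pass (adjusted p = 0.14), and 547 of all genes passed. With every probe set tested, and with quantile normalization, it was also 2 (adjusted p of Ncr1 0.068 and 0.0516). In these settings 1065 of all probe sets and 845 of all genes passed. Of the other lists at day 3, the NK cell count of 3 was 0 with the 6 arrays alone and with the covariate, the Kupffer cell and pan-leukocyte counts of 7 and 5 were both 4 with the block, and Icos passed with the block (adjusted p = 0.0481) and with the mean of its probe sets (adjusted p = 0.0111). The causes of these changes were not tested beyond the fewer arrays or genes that a setting leaves. Low signal limits the results for Prf1, Cd3d, Cd8a and the dimmer Cd4 probe set. The same holds for Ncr1 and Nkg7, which averaged 4.27 and 4.36 in saline mice of day 3, below the array medians.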
